A study of Rattus norvegicus with 12 samples.

Results

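A set of 4 interferon-stimulated genes, Mx1, Mx2, Irf7 and Isg15, was followed in the deep and superficial sublayers of the CA1 pyramidal cell layer of control and chronically epileptic rats. They were chosen by identifier, as 4 of the 32662 Ensembl gene identifiers in each count table, and all 4 had a row: ENSRNOG00000001959 (Mx1), ENSRNOG00000001963 (Mx2), ENSRNOG00000017414 (Irf7) and ENSRNOG00000021802 (Isg15). All rats were adult male Wistar animals, 45 to 50 days old and 180 to 200 g in weight. The epileptic animals received intraperitoneal kainate, an agonist of ionotropic glutamate receptors, at 5 mg/kg every hour up to status epilepticus. Diazepam at 4 mg/kg then ended the convulsions, and dextrose in saline was given. RNA was taken 6 to 8 weeks after the status, so the age and weight given are not those of the epileptic animals at sampling. Seizures were seen or recorded in a subset of the epileptic animals. Control animals were injected with saline or DMSO, were otherwise handled in a similar way, and had no seizures. Both sublayers were cut by laser from 20 µm sections of each of 3 control and 3 epileptic rats, for 4 groups of 3 and 12 libraries in all. The comparisons address the difference between the sublayers and the change with chronic epilepsy in each.

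Type I interferons bind a receptor on the cell surface and, through kinases of the JAK family and STAT transcription factors, switch on a set of antiviral genes. Many of these genes carry an interferon-stimulated response element in their promoter, and many have low transcript levels in uninfected brain. Irf7 encodes a transcription factor that amplifies interferon production, Mx1 and Mx2 encode dynamin-like GTPases that block virus multiplication, and Isg15 encodes a ubiquitin-like protein that is attached to other proteins.

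Each library held 16135358 to 19550582 gene counts in control and 20623196 to 25893962 in epileptic animals. The share of alignments outside annotated exons was 35.8 to 44.0% in control libraries and 37.7 to 43.0% in those of epileptic animal 1, but 22.3 to 26.7% in those of epileptic animals 2 and 3. Libraries of epileptic animals 2 and 3 also had the most alignments that were not unique, 37.9 to 45.6% against 25.2 to 34.8% elsewhere. Their most abundant identifier took 18.7 to 22.8% of gene counts, against 8.2 to 16.6% elsewhere. Levels below are gene counts per 1000000 counts of the TMM-scaled library total (CPM). They are not divided by gene length, so they are compared between libraries and not between genes. The 4 genes were the only identifiers that could be named, so the tissue label was not checked against marker genes, and the lists of other interferon pathway genes and of cell type markers were not counted. In tissue of this kind, a change in the number of cells of a type and a change in RNA per cell cannot be told apart.

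Irf7 was detected in every library at a low level, more even among the control than among the epileptic animals. In deep CA1 the control animals 1, 2 and 3 had 60, 63 and 49 counts, or 3.18, 3.30 and 2.91 CPM, and the epileptic animals 75, 92 and 52 counts, or 3.58, 4.43 and 2.80 CPM. In superficial CA1 the controls had 48, 46 and 42 counts, or 2.29, 2.46 and 2.25 CPM, and the epileptic animals 57, 73 and 72 counts, or 2.65, 2.97 and 3.40 CPM. The deep groups overlapped, since epileptic animal 3 lay below all controls, whereas every superficial epileptic library lay above every superficial control library. The same held for 10.2% of all identifiers tested in superficial CA1. The 95% Poisson intervals, for counting error only, overlapped, at 2.005 to 3.43 CPM in epileptic animal 1 and 1.80 to 3.28 CPM in control animal 2. The deep mean was 3.13 ± 0.200 CPM in control and 3.60 ± 0.812 CPM in epileptic animals, and the superficial mean 2.34 ± 0.109 and 3.01 ± 0.376 CPM (SD, n = 3 each). The controls were so alike that their highest deep level was 1.13-fold the lowest, and their highest superficial level 1.09-fold the lowest.

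RefSeq promoters on build GRCr8, 250 bases before to 50 after the start, were at hand for 2 of the 4 genes, Irf7 and Mx1. They are shown because the response element lies in the promoter of such genes. Its letters GAAANNGAAA were searched on both strands, and occur in 3.92% of the 33469 promoters of this length in the table (1312). The Irf7 promoter (chr1:205799974-205800273, minus strand, written 5′ to 3′ along the gene) holds 1 match, in capitals, on the strand opposite to the gene and 69 to 60 bases before the start. The Mx1 promoter (chr11:50294557-50294856, minus strand) holds none in this window.
Irf7 promoter: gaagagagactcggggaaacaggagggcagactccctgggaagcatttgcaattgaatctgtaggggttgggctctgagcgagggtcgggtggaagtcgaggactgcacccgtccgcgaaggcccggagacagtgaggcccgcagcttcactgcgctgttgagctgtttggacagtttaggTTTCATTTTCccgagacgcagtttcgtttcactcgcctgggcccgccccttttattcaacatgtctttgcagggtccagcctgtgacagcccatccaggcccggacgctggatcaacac
Mx1 promoter: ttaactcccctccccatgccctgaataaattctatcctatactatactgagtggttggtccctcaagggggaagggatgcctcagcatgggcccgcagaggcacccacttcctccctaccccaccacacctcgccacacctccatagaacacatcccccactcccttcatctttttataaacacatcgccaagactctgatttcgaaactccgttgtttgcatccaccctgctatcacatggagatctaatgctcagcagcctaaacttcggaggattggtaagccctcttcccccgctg

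Mx2 varied several-fold between animals, among the controls as well. In deep CA1 the control animals 1, 2 and 3 had 98, 253 and 31 counts, or 5.19, 13.2 and 1.84 CPM. In superficial CA1 the same animals had 88, 150 and 23 counts, or 4.21, 8.02 and 1.24 CPM. Control animal 2 was thus the highest and control animal 3 the lowest in both separately cut sublayers, 7.20-fold apart in deep and 6.50-fold in superficial CA1. The epileptic animals had 173, 221 and 276 counts in deep CA1, or 8.25, 10.6 and 14.9 CPM, and 116, 189 and 340 counts in superficial CA1, or 5.39, 7.70 and 16.0 CPM. In this group animal 1 was lowest and animal 3 highest in both sublayers. The epileptic and control groups overlapped in each sublayer because of control animal 2. The 95% Poisson intervals, which cover counting error only, were 11.6 to 15.0 CPM in deep CA1 of control animal 2 and 1.25 to 2.61 CPM in control animal 3, so these animals differed beyond counting error.

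**Figure D1:**
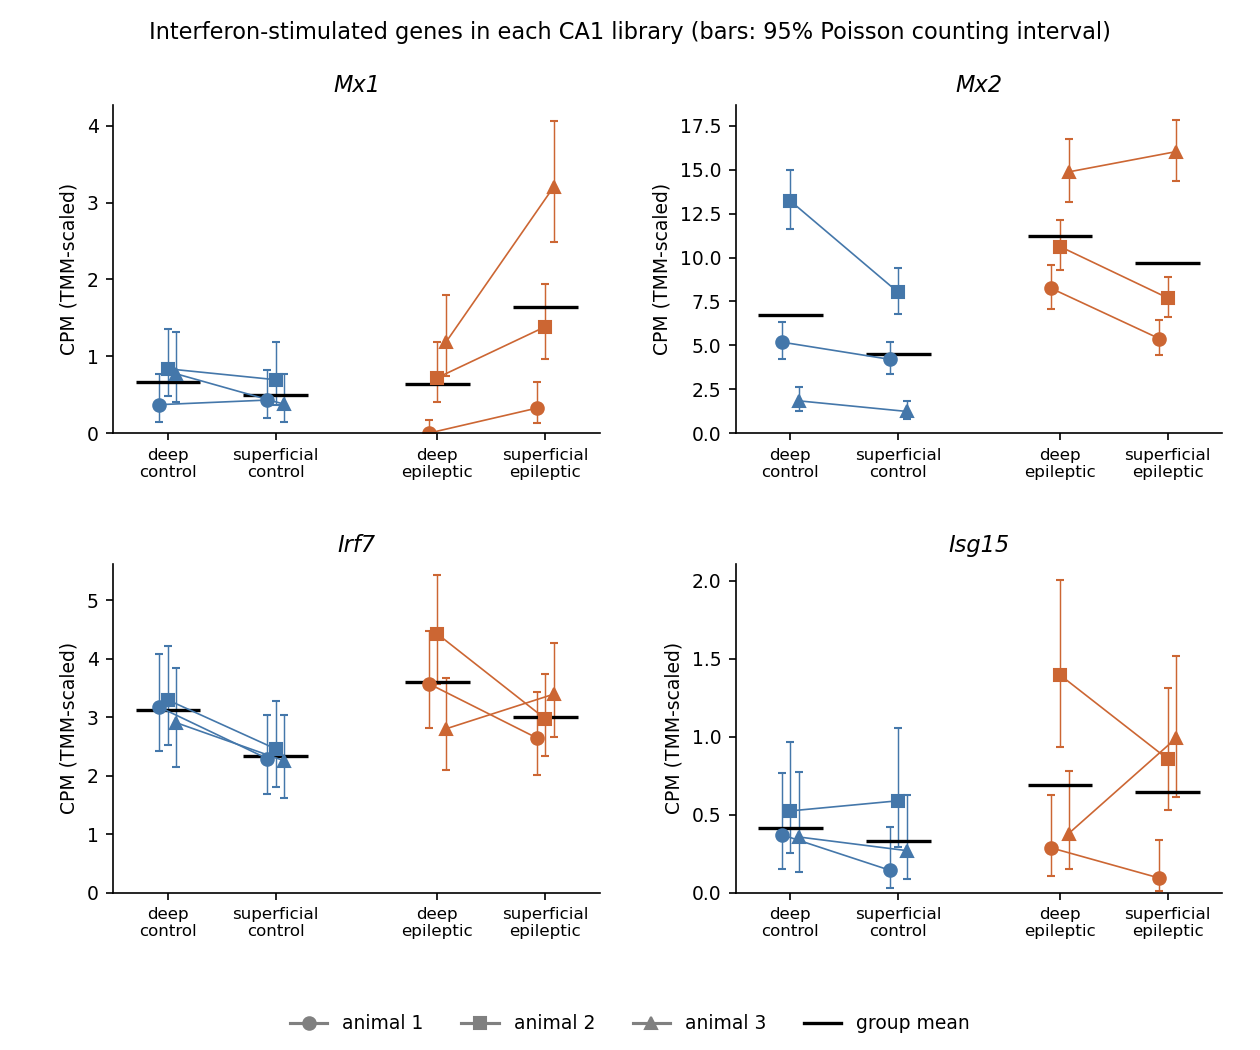
Level of each gene in every library (y axis, TMM-scaled CPM; x axis, the 4 groups; blue control, orange epileptic; symbols mark the animals, lines join the sublayers of 1 animal, black bars are group means, error bars 95% Poisson counting intervals). Mx2 spans 1.84 to 13.2 CPM among deep control libraries, Irf7 2.91 to 3.30 CPM, and Mx1 is highest at 3.21 CPM in superficial CA1 of epileptic animal 3.

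The spread of Mx2 among control rats was among the largest of all identifiers, a ranking made after its counts had been seen. Over the mean of both sublayers, the log2 CPM of Mx2 had an SD of 1.35 between the 3 controls, 8th of the 13231 identifiers with a mean log2 CPM of at least 0 (the top 0.0605%). The median SD of those identifiers was 0.101. Among the 3 epileptic rats Mx2 had an SD of 0.61, against a median of 0.171, and ranked 810th. Irf7 lay in the less variable part of the same ranking in both conditions, with an SD of 0.074 in control (8679th) and 0.133 in epileptic rats (8297th). That mean hides opposite levels in epileptic animal 3, the lowest of the epileptic animals in deep (2.80 CPM) and the highest in superficial CA1 (3.40 CPM). In edgeR's epilepsy fits the coefficient of variation of Irf7 between animals was above the median identifier, at 20.5% against 13.9% in deep CA1. In superficial CA1 it was 21.7% against 15.0%. Mx1 and Isg15 lay below the level needed to be ranked.

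**Figure D2:**
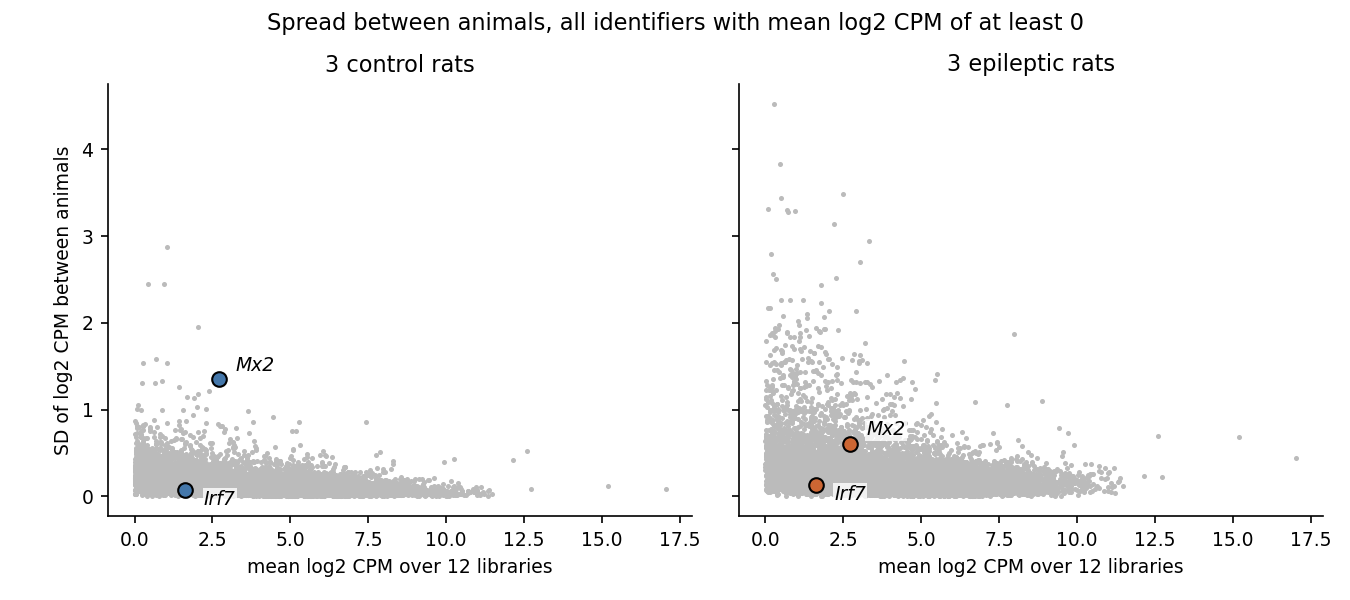
SD of log2 CPM between the 3 animals of a condition (y axis; mean of both sublayers) against the mean log2 CPM over the 12 libraries (x axis) for 13231 identifiers in grey, controls on the left and epileptic animals on the right. Mx2 stands above nearly all identifiers of its level in control rats, at 1.35, and lies at 0.61 in epileptic rats, while Irf7 lies at 0.074 and 0.133.

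Mx1 was scarce, and was the one gene of the 4 called different between sublayers. In deep CA1 the control animals 1, 2 and 3 had 7, 16 and 13 counts, or 0.370, 0.837 and 0.771 CPM, and in superficial CA1 9, 13 and 7 counts, or 0.430, 0.695 and 0.376 CPM. In deep CA1 the epileptic animals had 0, 15 and 22 counts, that is 0, 0.722 and 1.19 CPM, and in superficial CA1 7, 34 and 68 counts, or 0.325, 1.39 and 3.21 CPM. The 0 in deep CA1 of epileptic animal 1 does not show absence: 3 counts there would be 0.143 CPM, and the two-sided 95% Poisson interval of a count of 0 reaches 0.176 CPM, again for counting error only. Superficial libraries of epileptic animals 2 and 3 lay above all 6 control libraries, and that of epileptic animal 1 lay below them, so the groups overlapped in both sublayers. The superficial value of epileptic animal 1 rested on 7 counts, as many as in superficial CA1 of control animal 3. Mx1 and Mx2 are related in sequence and are near neighbours in the RefSeq gene table of GRCr8, with 1 gene between them. Alignments that were not unique were put in a separate tally and counted to no gene. How many of them came from Mx1 or Mx2 is not known, and each of their counts is uncertain to that extent.

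Isg15 gave 2 to 29 counts per library. In deep CA1 the control animals 1, 2 and 3 had 7, 10 and 6 counts, or 0.370, 0.523 and 0.356 CPM, and the epileptic animals 6, 29 and 7 counts, or 0.286, 1.40 and 0.377 CPM. In superficial CA1 the controls had 3, 11 and 5 counts, or 0.143, 0.588 and 0.268 CPM, and the epileptic animals 2, 21 and 21 counts, or 0.0929, 0.856 and 0.991 CPM. Epileptic animal 2 was high in both sublayers, animal 3 in the superficial one only, and animal 1 was below the control range in both. For animal 1 the margin was within counting error: 6 deep counts, as in control animal 3, and 2 superficial counts against 3 in control animal 1. The deep libraries did not reach the minimum count of the test, so the gene was tested in superficial but not in deep CA1 for epilepsy.

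Within control rats all 4 genes were fitted lower in superficial than in deep CA1, and none was called. Of all 14791 identifiers tested, 51.7% were fitted higher in superficial CA1. Called identifiers made up 8.44% here, in edgeR's quasi-likelihood fit with a block for the animal. Mx2 came nearest, with superficial-to-deep CPM ratios of 0.811, 0.606 and 0.672 in control animals 1, 2 and 3. Its log2 fold change was −0.56 (SE 0.17, adjusted p = 0.0541 by edgeR). It alone of the 4 lay at an unadjusted p below 0.05 in edgeR, as did 22.8% of all identifiers. Irf7 had ratios of 0.723, 0.746 and 0.776, and a fitted log2 difference of −0.42 (SE 0.20), with an adjusted p of 0.221. These 2 genes were lower in superficial CA1 in 3 of 3 controls, as were 23.1% of all identifiers. Mx1 and Isg15 differed in direction between control animals, with log2 fold changes of −0.37 (SE 0.41, adjusted p = 0.643) and −0.35 (SE 0.55, adjusted p = 0.762). The Mx2 value lay close to the threshold: its adjusted p was 0.00623 in a fit of the 6 control libraries alone and 0.135 by DESeq2, within 0.00315 to 0.949 over its alternatives. It was 0.0191 without epileptic animal 1 and 0.00551 without epileptic animal 3, which enter the shared estimate of the spread.

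Within epileptic rats Mx1 was 2.58-fold higher in superficial than in deep CA1 (log2 fold change 1.37, SE 0.34, adjusted p = 0.0187, edgeR's quasi-likelihood test). It was the 1 gene of the 4 called, where 5.04% of all identifiers were called higher in superficial CA1. The ratio was 1.92 in animal 2 (exact 95% interval 1.02 to 3.79) and 2.71 in animal 3 (1.65 to 4.60). Animal 1 had 7 superficial and 0 deep counts, for which the exact 95% interval of the ratio has a lower limit of 1.41 and no upper limit. Over the 3 animals this made 109 superficial and 37 deep counts, while controls had 29 and 36. All 3 epileptic animals had more in the superficial library, as for 21.0% of all identifiers. The call was lost without epileptic animal 2 (adjusted p = 0.0615) and without epileptic animal 3 (0.0775), in a fit restricted to the 6 epileptic libraries (0.0512) and without the animal as a block (0.802). Over all alternatives the adjusted p ranged from 0.000531 to 0.802, and the log2 fold change stayed between 1.23 and 1.65 over those that left out 1 animal.

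The other genes were not called between the sublayers of epileptic rats. Mx2 had ratios of 0.653, 0.724 and 1.08 in animals 1, 2 and 3, and its log2 fold change was −0.28 (SE 0.13) with an adjusted p of 0.195. Irf7 had ratios of 0.741, 0.672 and 1.21, and its log2 fold change was −0.26 (SE 0.18) with an adjusted p of 0.387. Isg15 had 0.325, 0.613 and 2.63, the first resting on 2 superficial and 6 deep counts with an exact 95% interval of 0.0321 to 1.82. Its log2 fold change was −0.11 (SE 0.42) with an adjusted p of 0.899. In epileptic animal 3 all 4 genes were higher in the superficial library, whereas in animals 1 and 2 Mx2, Irf7 and Isg15 were higher in the deep one. The exact 95% counting intervals of animal 3 reached below equal levels for Mx2 (0.917 to 1.27) and Irf7 (0.837 to 1.77), but not for Isg15 (1.08 to 7.31). Without epileptic animal 3 the Mx2 difference passed the test, at −0.53 and an adjusted p of 0.00964 (range over its alternatives 0.00964 to 0.966).

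**Figure D3:**
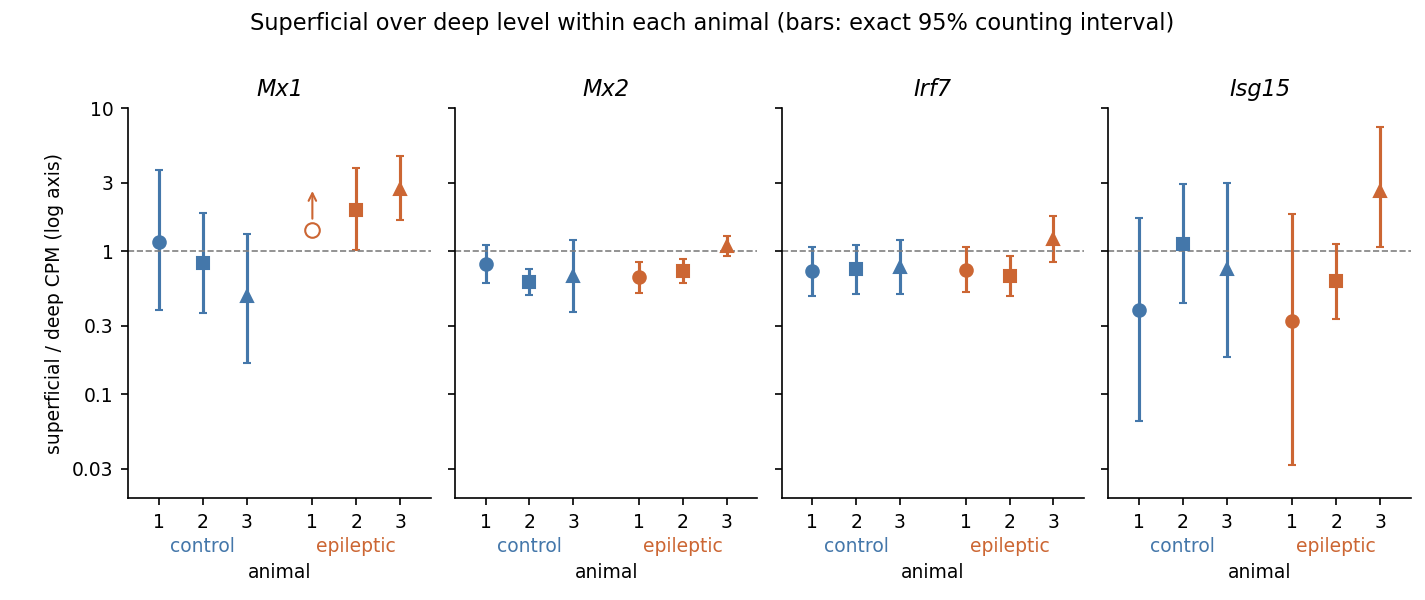
Superficial over deep CPM within each animal (log y axis; x axis, animals 1 to 3 of the control group in blue and the epileptic group in orange; bars, exact 95% counting intervals; dashed line, equal levels). The open symbol with an arrow is the lower 95% limit of 1.41 for Mx1 in epileptic animal 1, and the Mx1 values of epileptic animals 2 and 3 are 1.92 and 2.71, while all 4 genes lie above 1 in epileptic animal 3.

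Whether the sublayer difference itself changed with epilepsy was tested directly. For Mx1 the log2 fold change was 1.74 higher in epileptic than in control rats (SE 0.54, unadjusted p = 0.00549), but the adjusted p was 0.506, from 0.0703 to 1.00 over its alternatives. The Mx1 difference in epileptic rats is therefore not shown to differ from that in controls. The changes of Mx2, Irf7 and Isg15 were 0.27 (SE 0.21), 0.16 (SE 0.27) and 0.24 (SE 0.69), with adjusted p-values of 0.881, 0.960 and 0.975. None of the 4 genes and 0% of the 14791 identifiers were called by edgeR. By edgeR 976 identifiers (6.60%) lay at an unadjusted p below 0.05, DESeq2 called 2 and limma-voom 0.

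Between epileptic and control rats none of the 4 genes passed the test in either sublayer. In superficial CA1 Mx1 had 1.64 ± 1.46 CPM in epileptic and 0.500 ± 0.171 CPM in control animals (SD, n = 3 each), which is 1.73 on the log2 scale (SE 0.77, adjusted p = 0.278, edgeR's quasi-likelihood test). Mx2 had 9.71 ± 5.60 against 4.49 ± 3.40 CPM (SD, n = 3 each; 1.14, SE 0.71, adjusted p = 0.418), and Isg15 0.646 ± 0.484 against 0.333 ± 0.229 CPM (0.99, SE 0.80, adjusted p = 0.517). Irf7 had the smallest fold, 0.38 (SE 0.22, adjusted p = 0.356), although its groups did not overlap. Non-overlap held for 1 of the 4 genes here, and for 24.6% of all identifiers, 10.2% with the epileptic libraries higher. Called identifiers made up 0.0140% of the 14321 tested, and 2710 identifiers (18.9%) but none of the 4 genes lay at an unadjusted p below 0.05 in edgeR. DESeq2 called 885 identifiers and limma-voom 1. DESeq2 called none of the 3 for which it gave an adjusted p (all but Isg15), and limma-voom none of the 4. All 4 genes were fitted higher in epileptic rats, with a median log2 fold change of 1.07, where 51.0% of all identifiers were fitted higher with a median of 0.00684.

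The size of the superficial Mx1, Mx2 and Isg15 values depended on single animals, and that of Irf7 less so. Leaving out 1 animal at a time, the log2 fold change ranged from 0.56 to 1.84 for Mx2 and from 0.58 to 1.66 for Isg15. For Irf7 it ranged from 0.28 to 0.48. Without epileptic animal 1 the Mx1 difference passed the test, at a log2 fold change of 2.22 and an adjusted p of 0.0353, and over its alternatives the adjusted p ranged from 0.0353 to 0.999. Without epileptic animal 3 the Mx1 log2 fold change was 0.81. The share of alignments outside exons moved with these levels, since it was lowest in both libraries of epileptic animals 2 and 3. With that share as a covariate, a fit added after the data had been seen, Mx1 had a log2 fold change of −0.70, Mx2 −0.02 and Isg15 −2.10, and Irf7 0.15, against 0.38 without it (adjusted p = 0.999, 0.999, 0.569 and 0.999). The part of that share in the differences was not tested further, and it is lower on average in the epileptic libraries, so that it cannot be told apart from the condition in full.

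In deep CA1 Mx1 had 0.636 ± 0.598 CPM in epileptic and 0.659 ± 0.252 CPM in control animals (SD, n = 3 each), which is −0.07 on the log2 scale (SE 0.85, adjusted p = 0.981). Mx2 had 11.3 ± 3.36 against 6.75 ± 5.86 CPM (SD, n = 3 each), or 0.73 on the log2 scale (SE 0.58, adjusted p = 0.621). The Irf7 log2 fold change was 0.21 (SE 0.23), with an adjusted p of 0.731. Isg15, at 0.686 ± 0.616 against 0.416 ± 0.0927 CPM (SD, n = 3 each), reached 0.71 on the log2 scale (SE 0.58, adjusted p = 0.711) in the fit with no low-count filter. None of the 3 genes tested was called by edgeR's quasi-likelihood test, which called 0% of 14261 identifiers, with 1947 at an unadjusted p below 0.05 (13.7%). DESeq2 called 376 identifiers and limma-voom 0, and these 3 genes were in neither count. The groups overlapped for all 4 genes, and did not for 18.7% of all identifiers. These deep values also moved with single animals: the Mx2 log2 fold change was 1.67 without control animal 2 and 0.29 without control animal 3. For Mx1 it was 0.53 without epileptic animal 1 and −0.86 without epileptic animal 3, and for Irf7 0.36 without epileptic animal 3 and 0.03 without epileptic animal 2. With the outside-exon share as a covariate, again added after the data had been seen, the Mx2 value was 0.09.

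Adding the sublayers of each animal gave raw counts of 146 in epileptic against 65 in control animals for Mx1, 1315 against 643 for Mx2, 421 against 308 for Irf7 and 86 against 42 for Isg15. The log2 fold changes were 1.02 (SE 0.78), 0.90 (SE 0.66), 0.28 (SE 0.17) and 0.85 (SE 0.62), with adjusted p-values of 0.506, 0.494, 0.404 and 0.480. Leaving out 1 animal at a time, the Mx1 log2 fold change ranged from 0.13 without epileptic animal 3 to 1.55 without epileptic animal 1, and that of Mx2 from 0.46 without control animal 3 to 1.75 without control animal 2. That of Isg15 ranged from 0.27 without epileptic animal 2 to 1.30 without epileptic animal 1, and that of Irf7 from 0.20 to 0.33. None was called, as against 0.0325% of the 15398 identifiers tested and 18.1% at an unadjusted p below 0.05. DESeq2 called 919 identifiers and limma-voom 1. DESeq2 called none of the 3 for which it gave an adjusted p (all but Isg15), and limma-voom none of the 4. The mean CPM over both sublayers was 0.163, 1.05 and 2.20 in epileptic animals 1, 2 and 3 for Mx1, and 0.400, 0.766 and 0.573 in the controls. For Irf7 it was 3.11, 3.70 and 3.10 in epileptic animals and 2.74, 2.88 and 2.58 in controls, the 1 gene of the 4 whose animals did not overlap (23.4% of all identifiers). In an exact two-sided permutation test of the animal means of log2 CPM, 1 for each of the 4 genes, Irf7 was 0.26 higher in epileptic rats with p = 0.1, the smallest value 3 animals against 3 can give. The other differences were 0.25 for Mx1, 1.20 for Mx2 and 0.46 for Isg15, with exact permutation p-values of 0.9, 0.3 and 0.6.

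**Figure D4:**
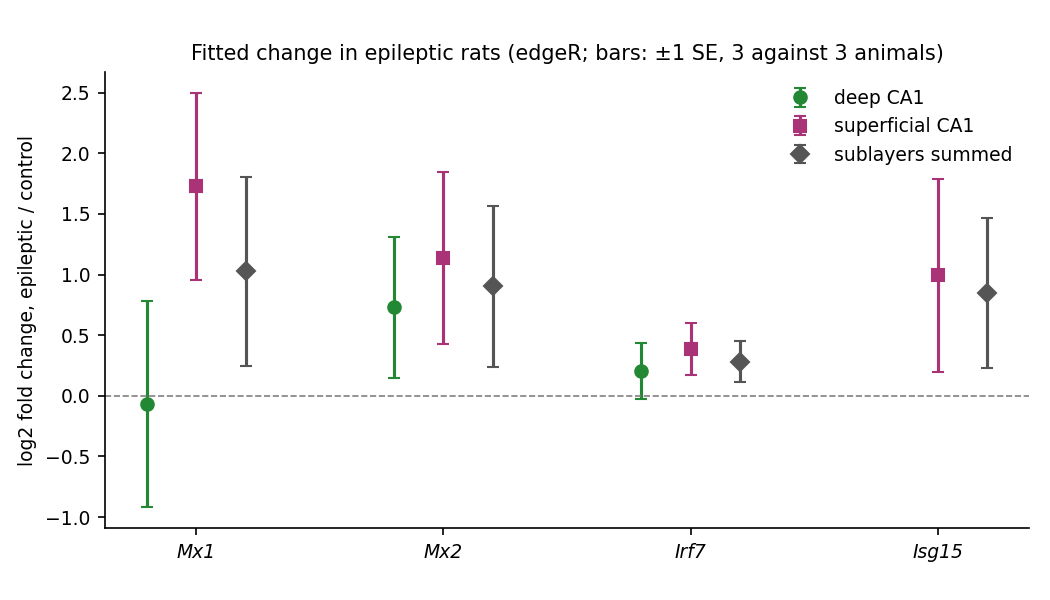
Fitted log2 fold change of epileptic against control rats (y axis) for each gene (x axis) in deep CA1 (green circles), superficial CA1 (purple squares) and with both sublayers of an animal summed (grey diamonds); bars are 1 SE of edgeR's fit, n = 3 animals per condition. Isg15 has no deep value because of its low counts. The Mx1 superficial value of 1.73 has an SE of 0.77, and no value passed the test.

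The identifiers whose pattern was most like that of the 4 genes were sought by Pearson's r between log2 CPM and the mean of the 4 standardized profiles, over the 12 libraries and 13229 identifiers. ENSRNOG00000009378 (r = 0.920) and ENSRNOG00000046889 (r = 0.911) were highest, and ENSRNOG00000020518 (r = −0.926) and ENSRNOG00000027871 (r = −0.920) lowest. ENSRNOG00000009378 changed little in absolute terms, from 210 ± 11.9 CPM in superficial control to 244 ± 22.2 CPM in deep epileptic libraries (SD, n = 3 each). With so many identifiers and 12 libraries that share animals, values of this size are a description of these libraries alone.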

How the data were processed

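RNA sequencing counts were deposited by the authors as 1 table per library, with raw whole-number read counts per Ensembl gene identifier and no normalization, 32662 identifiers and 5 tally rows (left out of library sizes and tests; 64.9 to 71.4% of alignments). STAR 2.5.0c, HTSeq 0.6.1, SAMtools 0.1.19 and FastQC 0.11.3 with build Rnor_6.0 are listed in the submitters' processing notes. Settings and strand use are not stated there, and antisense or overlapping genes may share reads. The 4 gene names come from the list of identifiers that defines the set, since the files give none, and 0 rows of the gene table carry an Ensembl identifier.

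The analysis used edgeR 4.0.16 under R 4.3.3 (filterByExpr with a minimum count of 10 and a minimum total of 15, TMM, robust quasi-likelihood test, Benjamini-Hochberg adjustment over all identifiers tested, threshold 0.05). Sublayers were compared in 1 fit to the 12 libraries with the animal as a term, epilepsy in 6 libraries per sublayer and in counts summed per animal. The printed SE is the absolute log2 fold change divided by the square root of F. CPM used TMM-scaled totals, log2 CPM a prior count of 2. DESeq2 1.42.0, limma 3.58.1 (voom), other scalings, filters, blocks and left-out animals were alternatives. The tests were also run on simulated counts, with the same spread for all identifiers and no difference between animals. The simulated spread was below that of the median identifier in the epilepsy comparisons, and below that of each of the 4 genes tested there. It was also below that of Isg15 in the sublayer comparisons. That run therefore does not cover the epilepsy comparisons of the 4 genes or the sublayer comparisons of Isg15.

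Deep and superficial libraries of 1 number come from the same brain per the labels' protocols, and their deviations from group means correlated at 0.316 to 0.770. Control and epileptic libraries of 1 number are different animals. For these, the correlation was 0.104 to 0.244 over the 3 deep pairs and 0.00252 to 0.212 over the 3 superficial pairs, and the block on that number changed no call of the 4 genes. No libraries of a group were duplicates (chi-square per identifier 6.84 to 115). The 4 genes are always named, and likeness was ranked by a rule on r, limited to 2 identifiers in each direction where no symbols are at hand. The genes, lists and tests were chosen with earlier results of these data known.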

Additional observations from a re-analysis of the deposited data

How the results depend on the processing

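Whichever gene was called, the number of the 4 genes called kept its value in 68 of 77 recomputations. For the sublayer difference in control rats it was 0, and became 1 (Mx2) with RLE size factors, with no low-count filter and in a fit of the 6 control libraries alone, and 0 to 1 when 1 animal was left out. For the sublayer difference in epileptic rats it was 1 (Mx1), and became 0 with no replicate block and with the 6 epileptic libraries fitted by themselves, and 0 to 1 when 1 animal was left out. Without epileptic animal 3 the 1 call was Mx2 in place of Mx1. With all 12 libraries, DESeq2 gave Mx1 no adjusted p for the sublayer difference in epileptic rats (log2 fold change 1.56, unadjusted p = 0.00868). That fit is not among the 77. For epilepsy in superficial CA1 the count was 0 to 1 when 1 animal was left out, and 0 in the deep, summed and changed-difference comparisons. The cause of these changes was not tested. A left-out animal or a fit of 1 condition uses fewer samples, and calls were both gained and lost in such fits.

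With the replicate number as a replicate block between control and epileptic animals, the log2 fold changes of Mx1 were −0.26 in deep and 1.43 in superficial CA1, those of Mx2 0.93 and 1.15, with 0 of the 4 genes called. With the outside-exon share as covariate the superficial values reversed to −0.6964 for Mx1, −0.0215 for Mx2 and −2.096 for Isg15, and Mx1 in deep CA1 was −4.20 (adjusted p = 0.114). When 1 animal was left out, directions reversed for Isg15 between sublayers of epileptic rats (−0.83 to 0.57), for the change of the sublayer difference of Isg15 (−0.49 to 0.92) and Irf7 (−0.085 to 0.34), and for Mx1 in deep CA1 (−0.86 to 0.53). The difference in animal means ranged from −0.45 to 1.21 for Mx1, −0.019 to 1.05 for Isg15, 0.49 to 1.83 for Mx2 and 0.18 to 0.30 for Irf7.

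Library totals without a scaling factor moved the median of all identifiers to −0.16 in deep and −0.12 in superficial CA1 for epilepsy, and reversed no direction of the 4 genes. Over the alternatives the identifiers called numbered 5 to 2375 and 5 to 2621 for the sublayers of control and epileptic rats (1248 and 1484 as reported), 0 to 178 for the changed difference (0), and 0 to 552, 0 to 1443 and 0 to 1417 for epilepsy in deep, superficial and summed CA1 (0, 2 and 5). With library totals 2198 of 2621 calls in epileptic rats were higher in superficial cells, against 745 of 1484. Counts of 0 to 34 per library limit what can be seen of Isg15 and of all but 1 Mx1 value.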

Other observations

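Correlations between the 4 genes over the 12 libraries were positive for every pair but differed in size. Pearson's r of log2 CPM, given as a description over libraries that share animals and sequencing depth, was highest between Irf7 and Isg15 (0.651) and between Mx1 and Isg15 (0.579), and lowest between Mx1 and Irf7 (0.0476). Mx2 had an r of 0.346 with Mx1, 0.553 with Irf7 and 0.501 with Isg15. Spearman's rank correlation ordered the pairs otherwise, with Mx1 and Isg15 highest (0.706), Irf7 and Isg15 at 0.587, and Mx1 and Irf7 again lowest (0.196). Whether the 4 genes share a profile was not tested, and the low counts of Mx1 and Isg15 add counting error to these values. Epileptic animal 2 had the highest deep levels of Irf7 and Isg15 of all 12 libraries, at 4.43 and 1.40 CPM, whereas epileptic animal 3 had the highest levels of Mx1 and Mx2, at 3.21 and 16.0 CPM in superficial CA1. In epileptic animal 1 Mx1 and Isg15 were below the control range in both sublayers, while Mx2 lay within it. These low values rest on few counts, and their 95% Poisson intervals overlapped those of the lowest control library. Superficial Mx1 had 7 counts in both libraries, deep Isg15 6 in both, and superficial Isg15 2 against 3.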
